A study of Homo sapiens with 24 samples.

Results

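The genes described here are 39 genes of glycolysis and of the transcriptional response to low oxygen. They were taken by gene symbol from the 4 deposited tables, and all 39 were found among the 34305 genes those tables list. By role they were 17 glycolytic enzymes, 9 transporters and regulators of glycolytic flux, and 13 other hypoxia genes. Enough counts for a test were present for 38 of them, out of 17790 genes tested in all. The exception was CA9, the cell surface carbonic anhydrase often used as a hypoxia marker, with 1 count in each of 2 WT control libraries at 24 h and none in the other libraries.

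The cells were HEK293, a line derived from human embryonic kidney (WT), and HEK293 stably carrying Klotho (Kl), the co-receptor through which FGF receptors bind the phosphate-lowering hormone FGF23. WT and Kl cells received recombinant human FGF23 either briefly and at a low dose (1 h, 0.5 nM) or for longer at a high dose (24 h, 10 nM). A control group (Ctrl) of each line was collected at each time, which made 8 groups of 3 libraries, and dose and time cannot be told apart. The labels give neither the promoter of the Klotho construct, nor whether the Kl line is 1 clone, nor whether replicates were separate cultures, so p-values measure the spread between these samples.

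Glycolysis splits glucose into pyruvate, and lactate dehydrogenase turns pyruvate into lactate when it is not burned in mitochondria. The transcription factor HIF, with an oxygen-regulated subunit encoded by HIF1A, raises glucose transporters, most glycolytic enzymes and PDK1 when oxygen is low. HIF1A is controlled mainly at the protein level, by prolyl hydroxylases of the EGLN family that mark it for degradation, and growth factor signaling can also raise its targets.

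HIF binds the core motif ACGTG or GCGTG, and the promoters of 5 enzymes and targets are shown as examples of members that fell or rose, from windows with many matches to one with none. The RefSeq windows (GRCh38.p14) reach from 250 bases before to 50 after the RefSeq start of 1 transcript, are written 5′ to 3′, and carry matches on either strand in capitals. LDHA lies at chr11:18394313-18394612 on the plus strand, BNIP3 at chr10:131981874-131982173 on the minus strand, HK2 at chr2:74833877-74834176 on the plus strand, PGAM1 at chr10:97427568-97427867 on the plus strand and ENO2 at chr12:6914330-6914629 on the plus strand.
LDHA: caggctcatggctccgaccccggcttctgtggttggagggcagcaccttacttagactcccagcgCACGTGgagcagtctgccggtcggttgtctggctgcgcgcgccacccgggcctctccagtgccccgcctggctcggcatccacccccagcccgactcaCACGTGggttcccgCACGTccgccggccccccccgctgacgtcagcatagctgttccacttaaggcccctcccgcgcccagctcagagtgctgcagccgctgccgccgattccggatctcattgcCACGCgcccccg
BNIP3: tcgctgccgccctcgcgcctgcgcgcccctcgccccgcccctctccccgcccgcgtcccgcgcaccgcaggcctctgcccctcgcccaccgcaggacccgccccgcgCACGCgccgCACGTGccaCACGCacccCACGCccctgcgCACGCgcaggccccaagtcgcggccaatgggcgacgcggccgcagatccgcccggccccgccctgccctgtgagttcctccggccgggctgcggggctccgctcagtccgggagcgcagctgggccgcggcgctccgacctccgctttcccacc
HK2: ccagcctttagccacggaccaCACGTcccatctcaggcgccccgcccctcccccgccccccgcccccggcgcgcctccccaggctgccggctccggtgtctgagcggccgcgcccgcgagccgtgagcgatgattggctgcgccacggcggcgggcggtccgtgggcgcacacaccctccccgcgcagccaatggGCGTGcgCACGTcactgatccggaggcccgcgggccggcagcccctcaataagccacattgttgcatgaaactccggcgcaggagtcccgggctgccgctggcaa
PGAM1: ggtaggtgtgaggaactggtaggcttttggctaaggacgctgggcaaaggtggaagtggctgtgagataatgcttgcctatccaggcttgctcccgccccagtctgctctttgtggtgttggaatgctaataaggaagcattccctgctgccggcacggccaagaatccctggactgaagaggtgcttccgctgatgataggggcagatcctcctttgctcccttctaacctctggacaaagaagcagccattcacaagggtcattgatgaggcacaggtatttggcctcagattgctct
ENO2: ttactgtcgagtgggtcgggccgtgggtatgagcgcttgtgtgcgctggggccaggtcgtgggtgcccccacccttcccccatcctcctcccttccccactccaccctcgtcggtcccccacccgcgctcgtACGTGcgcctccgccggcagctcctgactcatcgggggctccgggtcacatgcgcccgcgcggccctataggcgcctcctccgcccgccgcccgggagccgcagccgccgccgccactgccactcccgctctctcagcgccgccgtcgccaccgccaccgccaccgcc
LDHA and BNIP3 had 6 matches each, HK2 had 3, ENO2 had 1 and PGAM1 had 0, where the palindrome CACGTG counts once on each strand. The start used lies within 175 bases of the GENCODE gene start for LDHA, BNIP3 and HK2, but 835 bases from it for ENO2 and 1658 for PGAM1, so these 2 windows do not cover that start. Among the other members counted next, the distance reached 511700 bases for EGLN3, 193509 for PGK1, 100015 for LDHB and 68224 for P4HA2. A match was found in 24 of the 32 members with a window (75%) and in 7358 of 11721 tested genes with one (62.8%). Among the members that fell with FGF23 in Kl cells at 24 h, described below, 11 of 15 held a match (73.3%), against 12 of 16 of those without a call (75%). Of the 4 members that rose the count holds ENO2, and windows of SLC2A3, VEGFA and NDRG1 were not used here.

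The 24 libraries held 15.8 to 30.4 M counts each (M, 1000000), of which mitochondrially encoded genes took 5.24 to 8.27%. KL, the gene of Klotho, was at or near 0 in WT and between 1003.4 and 2169.2 CPM (counts per 1000000 after TMM scaling) in Kl libraries. Kidney epithelial markers were present at a mean of at least 1 CPM for 6 of 8 genes, PAX8 and CDH16 being the exceptions, whereas among 5 proximal tubule markers 2 reached that level and SLC34A1 was at 0. The median SD of log2 CPM over genes was 0.224 in Kl cells treated for 1 h and between 0.084 and 0.122 in the other 7 groups. These are bulk libraries, in which fewer cells expressing a gene and less RNA per cell cannot be told apart.

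Measured as CPM per kilobase of gene length, the payoff-phase and triose enzymes stood highest. GAPDH, which oxidizes glyceraldehyde phosphate, averaged 426.6 CPM per kb over the libraries, with single libraries between 375.0 and 491.5. GAPDH has 62 named pseudogenes in the annotation, so some of its reads may be shared. It was followed by ENO1 (340.6), the main enolase, TPI1 (256.2), which interconverts the triose phosphates, and the pyruvate kinase PKM (203.2). The ranges of neighbours in this order overlapped between libraries. PGAM1 (168.9) and LDHA (118.2) came next, and the hexokinase HK2 was low at 5.43, under HK1 at 22.5.

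HIF1A stood at 30.1 CPM per kb, above every other member of the hypoxia group, and its prolyl hydroxylase gene EGLN1 at 25.9. EGLN3, a hydroxylase gene that is itself a HIF target, ranked far lower, between 1.44 and 2.72 over the libraries. Of the lactate and proton carriers, SLC16A1 (40.8) lay far above SLC16A3 (0.376), the hypoxia-inducible one. ALDOA is listed at only 2.18, but 42.3% of its exon bases are shared on the same strand with AC093512.2, so its count is uncertain, as is that of LDHB (33.4% shared with AC010197.2). The 17 enzymes together took 0.75 to 1.01% of all counts.

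**Figure D1:**
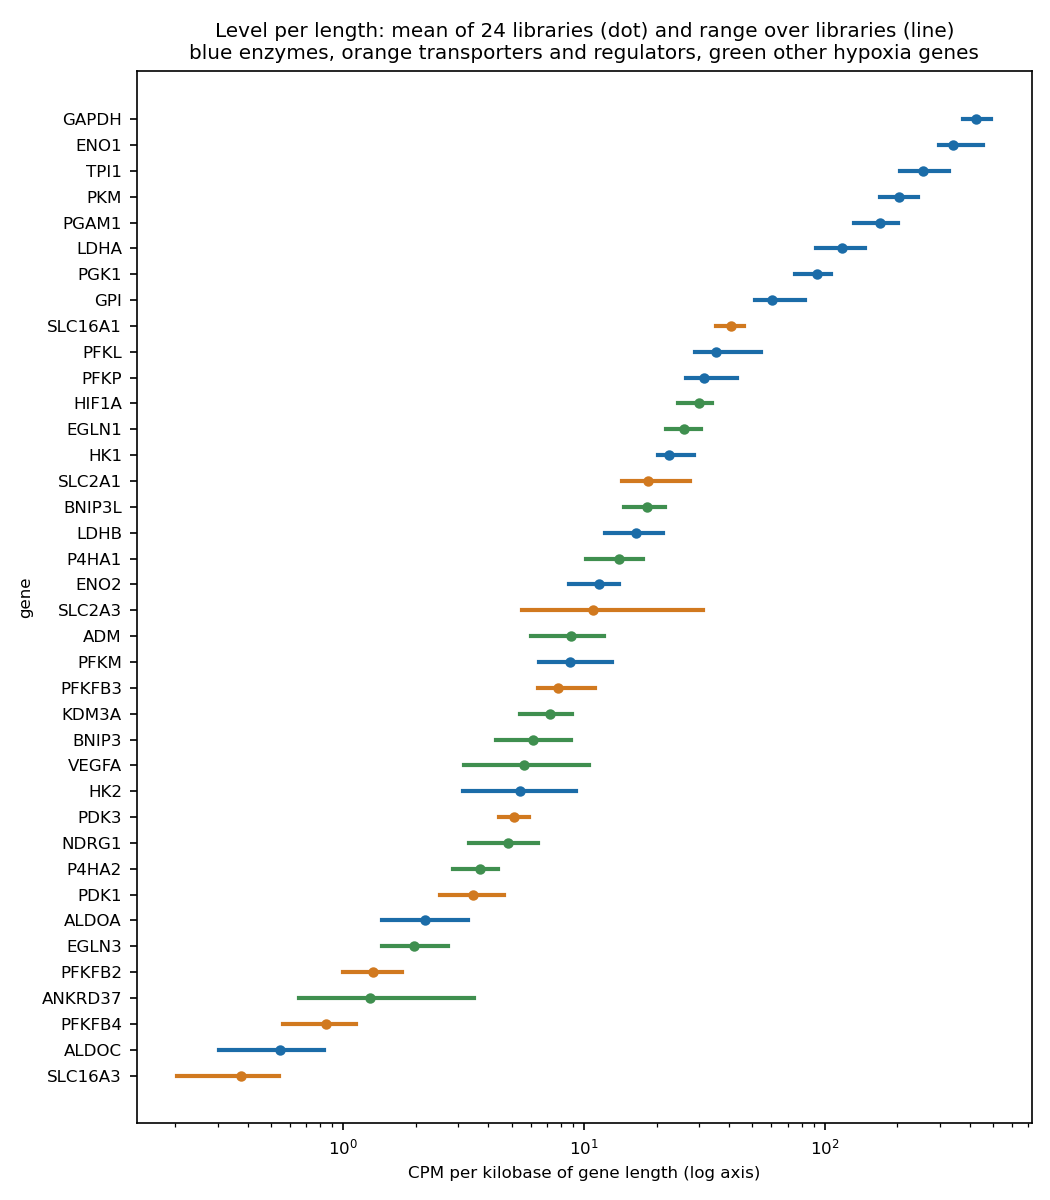
Level of 38 genes in CPM per kilobase (horizontal, log axis), with the mean of 24 libraries as a dot and their range as a line, coloured by role. Enzymes from GAPDH (426.6) to GPI (60.3) fill the top of the order, SLC2A3 has a wide range from 5.52 to 31.1, and CA9 is left out because most of its libraries are at 0.

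After 24 h with 10 nM, FGF23 had changed 19 of these genes in Kl cells, most of them downward, while the 3 genes that rose most were the glucose transporter SLC2A3, VEGFA and NDRG1. Of 38 members, 15 fell and 4 rose at an adjusted p under 0.05 (edgeR's quasi-likelihood test, Benjamini-Hochberg over all genes). Over all genes tested 17.3% were called, 9.3% higher and 8% lower. The median log2 fold change of the members was -0.09, and that of all genes lay at 0.

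Among the 17 enzymes 8 fell and 1 rose, with a median of -0.11. LDHA (ENSG00000134333, GRCh38 chromosome 11, 18394388 to 18408425), which makes lactate and whose promoter is printed above, stood at 896.0, 909.8 and 897.8 CPM in Kl controls at 24 h. With FGF23 it stood at 706.1, 752.8 and 726.1 CPM. All 3 treated libraries lay below all 3 controls, a log2 fold change of -0.31 ± 0.0365 (SE, adjusted p = 3.62e-07).

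The hexokinase HK2 (chromosome 2, 74833981 to 74893359), which commits glucose to the pathway, read 56.0, 53.3 and 54.4 CPM in controls and 42.0, 39.5 and 41.0 CPM with FGF23. The groups did not overlap, and the log2 fold change was -0.42 ± 0.0599 (adjusted p = 7.53e-06, and 0.0741 in the fit to all 24 libraries). HK1, the housekeeping hexokinase, overlapped between groups at -0.03, with a 95% interval from -0.12 to 0.06.

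PFKM, the muscle-type phosphofructokinase of the committed step, read 71.6, 71.9 and 76.4 CPM in controls and 56.0, 52.8 and 56.6 CPM with FGF23. Its 3 treated libraries were the lower ones, at -0.41 ± 0.0557 (adjusted p = 3.07e-06). The liver type PFKL fell by 0.27 on the log2 scale (adjusted p = 0.00947), a call lost without replicate 3 of the Kl controls at 24 h (0.0501) and in the fit to all 24 libraries (0.2). The platelet type PFKP stood at 0.08 with no call, and at 0.14 (adjusted p = 0.0044) after removal of the GC trend.

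TPI1 read 724.5, 743.2 and 738.0 CPM in controls and 644.7, 622.4 and 603.7 CPM with FGF23, again without overlap. The changes were -0.24 ± 0.0371 for TPI1 and -0.22 ± 0.0374 for PGAM1, which moves the phosphate of phosphoglycerate. PGAM1 levels of 516.5, 510.6 and 519.4 CPM in controls stood against 429.8, 453.6 and 446.1 CPM with FGF23. PGAM1 has 13 named pseudogenes in the annotation, so some of its reads may be shared.

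GPI, which isomerizes glucose phosphate, fell by 0.11 and LDHB, which favours the reverse reaction from lactate, by 0.18 on the log2 scale. Neither call was firm: GPI was called in 7 of 16 alternatives and LDHB in 11, and for GPI any of 5 single libraries, for LDHB any of 3, ended the call when left out. The adjusted p over alternatives reached 0.446 for GPI and 0.36 for LDHB.

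ENO2, the neuronal enolase, was the enzyme that rose, from 37.5, 37.1 and 41.2 CPM to 47.6, 41.5 and 44.2 CPM. Its lowest treated library lay just above its highest control, with a log2 fold change of 0.20 ± 0.068 (adjusted p = 0.0416). The call was lost without replicate 1 or 2 of the Kl controls at 24 h, without replicate 1 or 3 of the treated Kl cells at 24 h, in DESeq2, in the fit to all 24 libraries and with library size scaling (adjusted p up to 0.162). Some of the most abundant enzymes gave no call: GAPDH stood at -0.04, ENO1 at 0.04, PKM at 0.07 and PGK1 at -0.03, each with an SE between 0.034 and 0.0362. PKM was called after removal of the GC trend (0.10, adjusted p = 0.0201).

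Of the 9 transporters and regulators, 4 fell and 1 rose, with a median of -0.15. SLC2A3 (chromosome 12, 7919230 to 7936275), the high-affinity glucose transporter GLUT3, read 50.4, 56.0 and 54.7 CPM in controls and 179.9, 191.5 and 187.5 CPM with FGF23. Every treated library was more than 3 times the highest control, and the log2 fold change of 1.80 ± 0.0513, or 3.47-fold, was the widest of all members (adjusted p = 5.56e-21). In the authors' deposited table its log2 fold change is also 1.8.

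The other glucose transporter gene moved the opposite way. SLC2A1, encoding the basal transporter GLUT1, fell from 108.8, 102.8 and 112.2 CPM to 92.1, 89.2 and 87.2 CPM without overlap. This was a change of -0.27 ± 0.0499 (adjusted p = 0.000242, and 0.054 in the fit to all 24 libraries). Counted as CPM per kilobase, the group mean of SLC2A1 was 22.8 in these controls against 8.72 for SLC2A3, and with FGF23 the order turned, at 18.9 and 30.2.

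PDK1, the kinase that keeps pyruvate out of mitochondria by blocking pyruvate dehydrogenase, read 68.5, 68.3 and 69.0 CPM in controls and between 47.1 and 52.3 CPM in the 3 libraries with FGF23. The controls were tightly grouped and all above the treated libraries, with a change of -0.46 ± 0.057 (adjusted p = 7.48e-07). PDK3 stood at -0.14 with no call.

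PFKFB3 and PFKFB4 make the regulatory fructose bisphosphate that activates phosphofructokinase. PFKFB3 read 56.7, 55.7 and 55.6 CPM in controls and 44.3, 42.1 and 40.3 CPM with FGF23 (-0.41 ± 0.06). PFKFB4, at 6.91, 6.44 and 6.09 CPM in controls and 5.11, 3.53 and 3.42 CPM with FGF23, fell by 0.71 on the log2 scale with an SE of 0.165 (adjusted p = 0.00273). PFKFB2 pointed up at 0.25 ± 0.101 with no call (adjusted p = 0.0943), and was called without replicate 1 of the treated Kl cells at 24 h (0.0263).

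Among the 12 other hypoxia genes tested 3 fell and 2 rose, with a median of -0.05. BNIP3 (chromosome 10, 131966455 to 131982013), a mitophagy receptor and HIF target, fell from 43.0, 46.5 and 42.0 CPM to 26.1, 27.6 and 30.3 CPM. The groups were far apart relative to their spread, at -0.64 ± 0.0711 (adjusted p = 9.72e-08), although 39 named pseudogenes may share reads with it. Its relative BNIP3L read 78.2, 80.4 and 78.3 CPM in controls and 75.1, 77.6 and 73.8 CPM with FGF23. Its treated libraries lay just below its controls, at -0.06 ± 0.0512, which was not called (adjusted p = 0.443, and 0.05 after removal of the GC trend).

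EGLN3 fell by 0.52 on the log2 scale with an SE of 0.1 (adjusted p = 0.000374), from 17.7, 14.9 and 17.8 CPM to 11.3, 12.4 and 11.3 CPM. KDM3A, a histone demethylase induced by HIF, fell by 0.20 (adjusted p = 0.00931). The KDM3A call was lost without replicate 1 of the Kl controls at 24 h (0.0745), with voom (0.0539) and in the fit to all 24 libraries (0.315). EGLN1, the main oxygen sensor, stood at -0.08 and was called after removal of the GC trend (adjusted p = 0.0259).

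VEGFA (chromosome 6, 43770184 to 43786487), the vascular growth factor, rose from 81.0, 79.4 and 79.8 CPM to 152.2, 141.1 and 140.7 CPM. The lowest treated library was far above the highest control, and the change was 0.85 ± 0.0486, or 1.8-fold (adjusted p = 6.36e-14). NDRG1, a stress-responsive gene that HIF and other factors induce, rose from 42.1, 43.1 and 43.0 CPM to 59.2, 61.9 and 59.8 CPM (0.50 ± 0.0579, adjusted p = 2.57e-07). ADM, the vasodilator adrenomedullin, did not follow them, at -0.15 ± 0.0878 with no call.

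HIF1A itself read 167.4, 162.7 and 157.8 CPM in controls and 152.1, 160.1 and 165.9 CPM with FGF23. The libraries were interleaved, and the change of -0.03 had a 95% interval from -0.12 to 0.06. The collagen prolyl hydroxylases P4HA1 and P4HA2 stood at 0.14 and 0.08, with no call. ANKRD37 stood at 0.17 with the wide SE of 0.232, and 35.2% of its exon bases lie antisense to UFSP2.

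Side by side, 8 of 17 enzymes fell and 1 rose, against 3 of 12 and 2 for the other hypoxia genes, and the medians were -0.11 and -0.05. Under all 16 alternatives 12 of the 19 calls held, those of LDHA, PFKM, TPI1, PGAM1, SLC2A3, PDK1, PFKFB3, PFKFB4, BNIP3, EGLN3, VEGFA and NDRG1. In the same libraries KL itself was higher with FGF23, at 1803.7 to 1913.8 CPM against 1003.4 to 1015.9 CPM in controls. The cycling marker MKI67 was also higher (0.20, adjusted p = 0.00115), as was the mean of TOP2A, another cycling marker (895.0 against 796.3 CPM). The part of KL and of these markers in these results was not tested. The kidney epithelial markers summed to 533.2 to 560.8 CPM in controls and 626.4 to 683.0 CPM with FGF23, with KRT18 and KRT8 up and KRT19 down, and their part was not tested either.

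**Figure D2:**
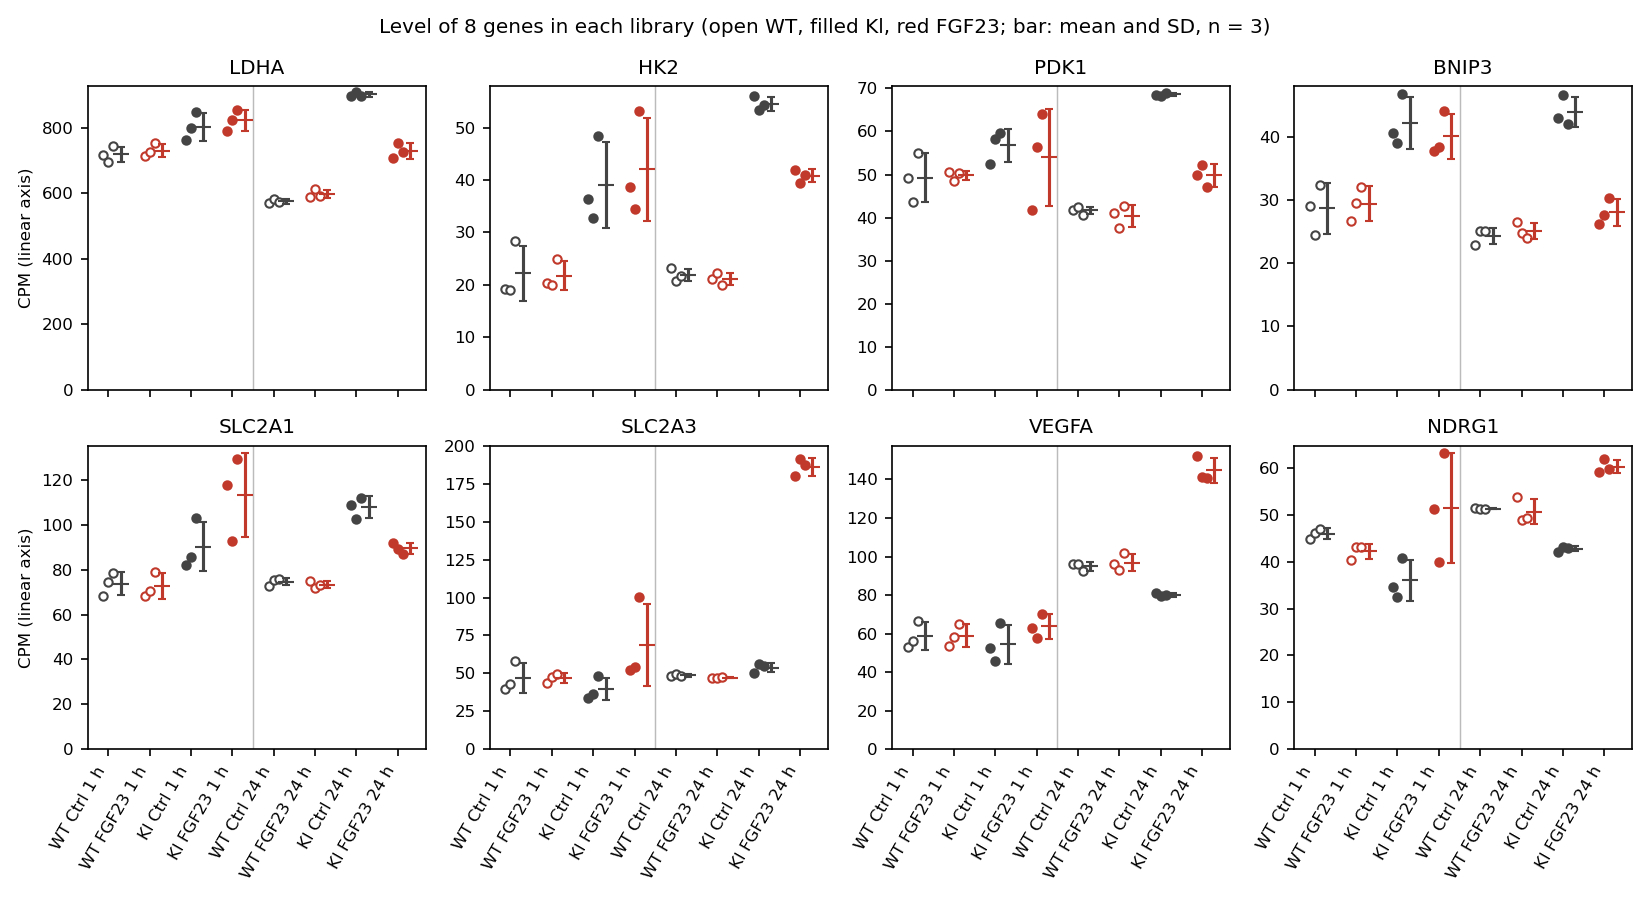
CPM of 8 genes in each of the 24 libraries (linear axes from 0), with open points for WT, filled points for Kl, red for FGF23, and a bar for the mean and SD of 3 libraries. At 24 h the treated Kl libraries of LDHA (706.1 to 752.8) lie below their controls, and those of SLC2A3 (179.9 to 191.5), VEGFA and NDRG1 lie above.

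In WT cells the same dose and time gave no call among the members, with 0.635% of all genes called (0.0956% higher and 0.54% lower). That share rests on 113 genes, and the number was 383 without treated WT replicate 2, 29 without treated replicate 3, 48 to 65 without treated replicate 1 or WT control replicate 2 or 3, 2 with voom and 0 in the fit to all 24 libraries. By edgeR 0 of 38 passed and 3 had an unadjusted p under 0.05 (ALDOA at 0.33, TPI1 at 0.07 and PGK1 at 0.06), against 1760 of 17790 genes, and DESeq2 and voom also called 0. LDHA read 568.8, 583.0 and 573.0 CPM in WT controls and 588.4, 612.1 and 589.9 CPM with FGF23. SLC2A3 read 48.2, 49.9 and 48.3 CPM in controls and 47.2, 47.2 and 47.3 CPM with FGF23. LDHA treated libraries sat just above their controls and those of SLC2A3 just below, at 0.05 and -0.05 on the log2 scale. MKI67 was lower with FGF23 in these cells (-0.17, adjusted p = 0.000489). TOP2A overlapped, at 942.6 to 984.5 CPM in controls and 945.8 to 961.9 CPM with FGF23.

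The difference between the lines was tested directly, as the FGF23 effect in Kl minus that in WT at 24 h. It was called for 17 members, 14 lower and 3 higher, where 14% of all genes were called (6.19% lower and 7.83% higher). All 8 of the called enzymes were lower in Kl, with LDHA at -0.35 ± 0.0456 (adjusted p = 6.85e-08), TPI1 at -0.31 ± 0.0465 (2.63e-06) and PFKM at -0.46 ± 0.0808 (4.44e-05). Higher were SLC2A3 at 1.85 ± 0.0704 (3.01e-26), VEGFA at 0.83 ± 0.0631 (1.01e-14) and NDRG1 at 0.52 ± 0.0772 (1.41e-06). BNIP3 was lower at -0.68 ± 0.1 (1.68e-06), PDK1 at -0.41 and EGLN3 at -0.50.

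By role the difference was lower for 8 of 17 enzymes and higher for 0, lower for 3 and higher for 1 of 9 transporters and regulators, and lower for 3 and higher for 2 of 12 other hypoxia genes. Calls of LDHA, TPI1, PFKM, BNIP3, SLC2A3, VEGFA and NDRG1 held under all 22 alternatives. Calls of GPI, KDM3A, LDHB and PFKL did not survive every omission of 1 library. That of GPI was lost without any of 8 libraries, including each Kl control, and that of PFKL without any of 7, including each WT control. KDM3A lost its call without any of 6 libraries (replicates 1 and 2 of the Kl controls, replicate 1 of treated Kl, replicate 1 of the WT controls, replicates 2 and 3 of treated WT). LDHB lost it without replicate 2 of either control group, replicate 3 of treated Kl or replicate 1 of treated WT.

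**Figure D3:**
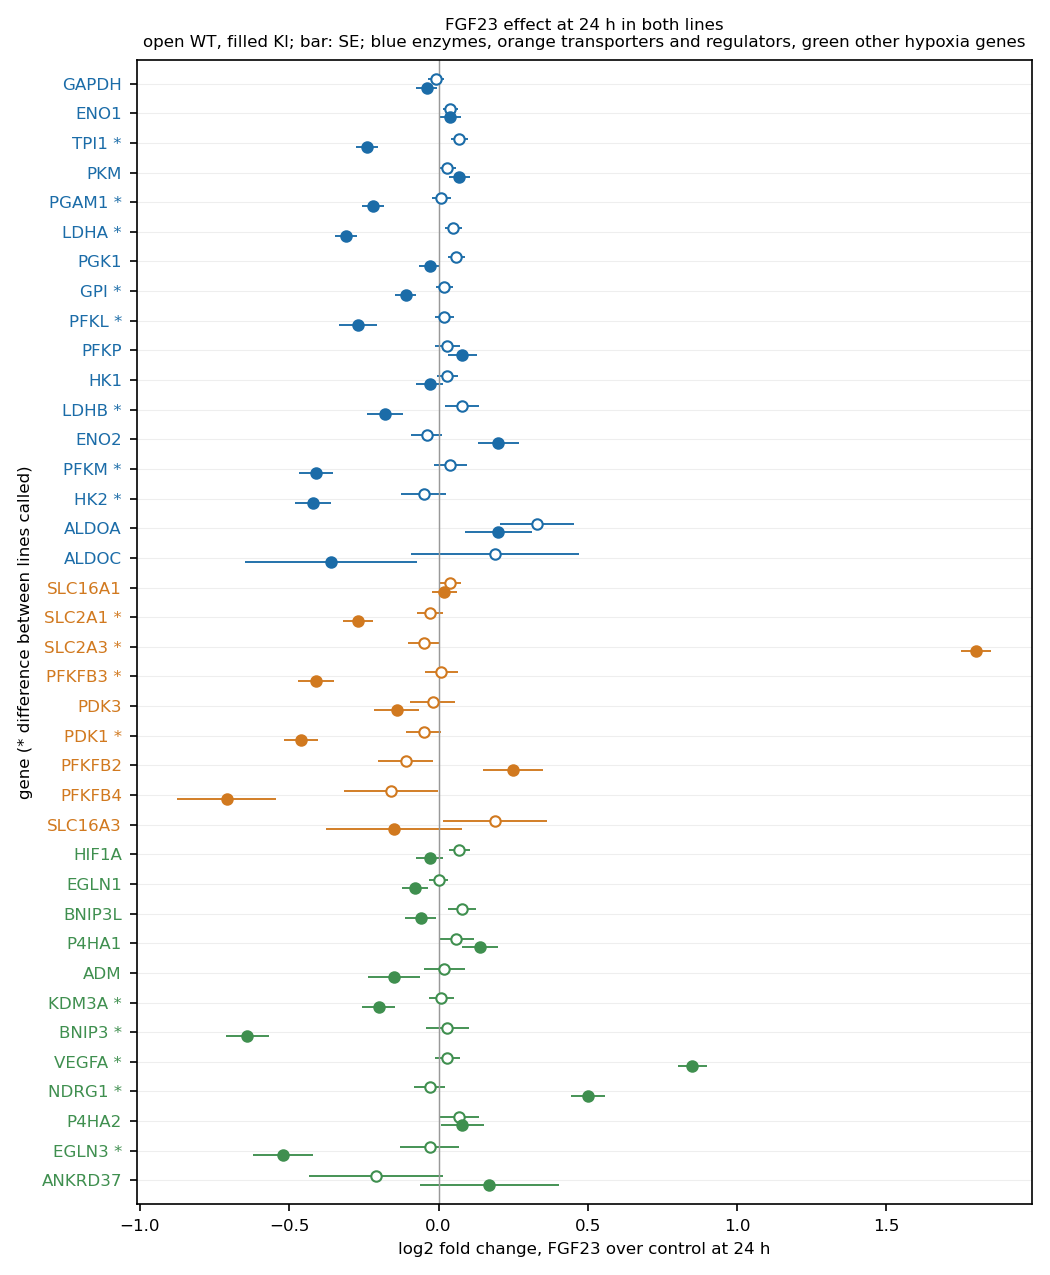
log2 fold change of FGF23 over control at 24 h for 38 genes (vertical), open for WT and filled for Kl, with SE bars, and an asterisk where the difference between the lines was called. WT points lie near 0, whereas filled points run from PFKFB4 at -0.71 to SLC2A3 at 1.80.

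After 1 h with 0.5 nM the response was small and uncertain. In WT cells 0 of 38 members and 0% of all genes were called by edgeR, with 0 members at an unadjusted p under 0.05 and 0 called by DESeq2 or voom. In Kl cells edgeR again called 0 members, against 0.523% of all genes (0.506% higher and 0.0169% lower), while 7 had an unadjusted p under 0.05, against 1368 of all 17790 genes. These were ALDOA, SLC2A1, SLC2A3, SLC16A3, PFKFB3, NDRG1 and ADM, and all 7 pointed upward.

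SLC2A3 read 34.0, 36.7 and 48.1 CPM in Kl controls at 1 h and 52.0, 54.2 and 100.2 CPM with FGF23. All treated libraries were above all controls, replicate 3 far above, and the change was 0.80 ± 0.228 (adjusted p = 0.289). Without that treated replicate 3 it was 0.43. The adjusted p passed the threshold in DESeq2 (0.017), in the fit to all 24 libraries (0.0215), with the replicate number as a block (0.00278) and in the authors' deposited table (0.0169). The fit to all 24 libraries takes 1 spread per gene from all groups, whereas this treated group had the widest spread (median SD 0.224). In this comparison that fit called 859 of all genes, against 93 in the main fit, so its calls here carry little weight.

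NDRG1 read 34.7, 32.5 and 40.8 CPM in controls and 51.3, 39.9 and 63.2 CPM with FGF23, overlapping by 1 library (0.52 ± 0.16, adjusted p = 0.346). It was called by voom (0.0161), without the filter on low counts (0.0198) and in the fit to all 24 libraries (0.0018). ADM, at 21.1, 18.2 and 20.8 CPM in controls and 32.9, 26.3 and 23.8 CPM with FGF23, did not overlap, with a change of 0.47 ± 0.145 (adjusted p = 0.355, and 0.00553 in the fit to all 24 libraries). SLC2A1 overlapped at 0.33 ± 0.137 (adjusted p = 0.579, and 0.0278 in the fit to all 24 libraries). That fit was the only 1 of 15 alternatives to call ADM or SLC2A1.

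LDHA was at 761.4, 797.7 and 847.0 CPM in those controls and at 790.3, 823.3 and 852.2 CPM with FGF23, so the groups overlapped. Replicate 1 of the treated Kl cells at 1 h stood apart for several enzymes, with PFKL at 483.5 CPM against 288.8 and 304.2 in the other libraries of its group, and ENO1 at 2385.2 against 1823.0 and 1854.5. The enzymes took 1.01% of its counts, against 0.89% in both others. The difference between lines at 1 h was called for 0 members by edgeR (4 at an unadjusted p under 0.05, against 947 of all 17790 genes), where 0.32% of all genes were called (0.315% higher and 0.00562% lower), for 1 by voom and for 0 by DESeq2.

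Without FGF23, Kl cells at 24 h carried more RNA of most of these genes than WT cells, relative to all counts. An effect of Klotho and any other difference between the lines cannot be told apart. In controls at 24 h 28 of 38 members were higher and 6 lower in Kl, where 38.3% of all genes were called (20.2% higher and 18.1% lower). By role 15 enzymes were higher and 1 lower, 6 transporters and regulators higher and 1 lower, and 7 other hypoxia genes higher and 4 lower. The medians were 0.35, 0.25 and 0.17, and that of all genes was -0.01.

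HK2 differed most among the enzymes, with 23.2, 20.8 and 21.6 CPM in WT and 56.0, 53.3 and 54.4 CPM in Kl controls at 24 h, a log2 difference of 1.33 ± 0.0636 (2.51-fold, adjusted p = 4.54e-24). LDHA stood at 574.9 ± 7.33 CPM (SD, n = 3) in WT and 901.2 ± 7.48 in Kl, a difference of 0.65 ± 0.0292. BNIP3 at 0.85, PDK1 at 0.72, SLC2A1 at 0.53 and PGAM1 at 0.53 were higher in Kl as well, and none of them overlapped between the lines. Smaller differences in the same direction were called for GAPDH (0.30), ENO1 (0.31), PKM (0.30), PGK1 (0.35) and HIF1A (0.18 ± 0.0374, adjusted p = 0.000101).

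Lower in Kl were ENO2 (-0.52 ± 0.0601), ADM (-0.35), PFKFB2 (-0.29), NDRG1 (-0.26), VEGFA (-0.24) and P4HA2 (-0.24). ENO2 read 50.3, 57.0 and 57.9 CPM in WT and 37.5, 37.1 and 41.2 CPM in Kl, without overlap. The call of PFKFB2 was lost without Kl replicate 1 or WT replicate 3, that of PFKFB4 without either of these or WT replicate 1, and that of SLC2A3 without any library but Kl replicate 1. The fit to all 24 libraries ended those 3 calls and also those of HIF1A (0.119), VEGFA (0.0608), NDRG1 (0.0568) and P4HA2 (0.0706). It also ended those of HK1, KDM3A, P4HA1 and PFKL. The fit to 21 libraries left out the treated Kl group at 1 h. In it VEGFA was not called either (0.0613), while HIF1A, NDRG1, P4HA2, HK1 and KDM3A kept their calls. Of all genes the fit to 24 libraries called 4183, that to 21 called 5863 and the main fit 6816. With library size scaling the share of all calls that were higher in Kl moved from 52.8 to 37.3%, and 25 members were higher and 6 lower.

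This line comparison and the FGF23 comparison share the Kl controls at 24 h, so their values are set side by side only. For LDHA the group means at 24 h were 574.9 in WT controls, 596.8 in treated WT, 901.2 in Kl controls and 728.3 CPM in treated Kl. For BNIP3 they were 24.3, 25.1, 43.8 and 28.0, and for PDK1 41.6, 40.4, 68.6 and 49.8 CPM. Treated Kl cells thus lay between WT and Kl controls for LDHA, PDK1 and BNIP3. This did not hold for every member that fell. The treated Kl means of PFKL (277.5 against 307.2 CPM in WT controls), PFKFB4 (4.02 against 4.82) and EGLN3 (11.7 against 12.3) were below WT controls. That of PFKFB3 was about level with them (42.2 against 42.5). For SLC2A3 the means were 48.8, 47.2, 53.7 and 186.3 CPM, with treated Kl cells far above the rest.

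At 1 h the line difference was smaller, with 10 members higher and 4 lower in Kl, where 20% of all genes were called (10.2% higher and 9.79% lower). By role 7 enzymes were higher and 1 lower, 2 transporters and regulators higher, and 1 other hypoxia gene higher and 3 lower, with medians of 0.15, 0.08 and -0.11. BNIP3 (0.57 ± 0.0924), SLC2A1 (0.30), PFKM (0.29), ENO2 (-0.35), ADM (-0.41) and NDRG1 (-0.34) kept their calls under all 16 alternatives. The other 8 calls, from 0.15 for GPI to 0.22 for PDK1 and -0.27 for P4HA2, each failed without at least 1 library, and each of the 6 libraries ended between 3 and 7 of them. The number of members called was 7 without replicate 1 and 9 without replicate 2 of the WT controls, and 9 with library size scaling. HK2 read 19.2, 19.1 and 28.3 CPM in WT and 36.3, 32.7 and 48.4 CPM in Kl, all Kl libraries above all WT libraries and with replicate 3 the highest of each group. Its difference of 0.85 ± 0.237 was not called (adjusted p = 0.0745), but it was called with the replicate number as a block (1.09e-10), with voom (3.13e-05), with DESeq2 (0.0122), without the filter (5.33e-08), in the fits to all 24 (0.000319) or 21 libraries (0.000303), and without replicate 3 of the Kl (0.0159) or the WT controls (0.000102).

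Markers of kidney epithelium moved between the lines too. They summed to 852.1 to 880.5 CPM in WT and 533.2 to 560.8 CPM in Kl controls at 24 h, with KRT19 at -1.73 and EPCAM at -1.04. Neuronal and adrenal markers, with 5 of 8 at 1 CPM or more and ENO2 among them, summed to 336.9 to 338.0 and 270.9 to 283.0 CPM. MKI67 was lower in Kl controls at 24 h (-0.36), and TOP2A read 771.9 to 817.2 CPM there against 942.6 to 984.5 CPM in WT. The part of these in the line difference was not tested.

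**Figure D4:**
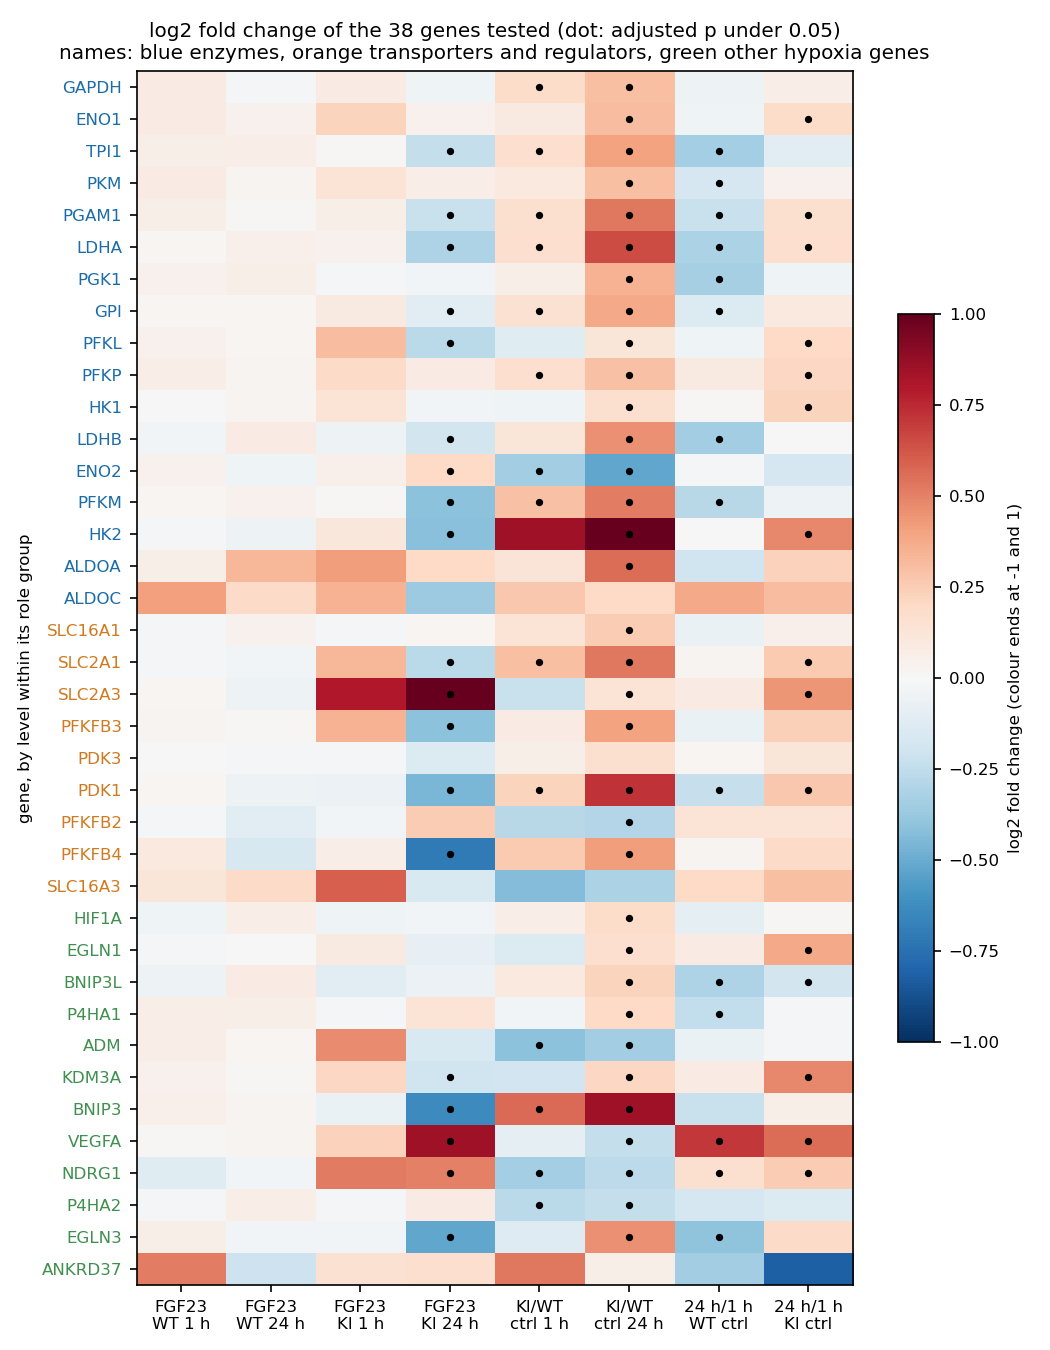
log2 fold change of 38 genes (vertical, by role and level) in 8 comparisons (horizontal), with colour ending at -1 and 1 and a dot where the adjusted p was under 0.05. The FGF23 columns of WT carry no dot, that of Kl at 24 h carries 19, and the line column at 24 h carries 34.

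Control cells differed between the collection times, with most called members lower at 24 h in WT and higher at 24 h in Kl. In WT controls 12 members were lower and 2 higher at 24 h than at 1 h, where 25% of all genes were called (12.7% lower and 12.3% higher). In Kl controls 14 were higher and 1 lower, where 20.9% of all genes were called (11.2% higher and 9.77% lower). Among enzymes the counts were 0 higher and 8 lower in WT and 7 higher and 0 lower in Kl, with medians of -0.14 and 0.16. With library size scaling the share of all WT calls that were higher moved from 49.1 to 60.1%, with the same 2 and 12 counts of members.

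LDHA went from 715.9, 695.7 and 742.3 CPM at 1 h to 568.8, 583.0 and 573.0 CPM at 24 h in WT, a change of -0.32 ± 0.0369 (adjusted p = 3.72e-07). In Kl it went from 761.4, 797.7 and 847.0 to 896.0, 909.8 and 897.8 CPM, a change of 0.17 ± 0.0458 (adjusted p = 0.00638) that was lost without replicate 1 of the Kl controls at 1 h. PGK1 (-0.33), TPI1 (-0.34), LDHB (-0.35) and PKM (-0.17) fell in WT. In Kl, EGLN1 (0.38), KDM3A (0.48), PDK1 (0.27), HK1 (0.22) and ENO1 (0.18) rose. The last 3 each lost the call in 1 alternative (adjusted p 0.0655, 0.0811 and 0.0636). Under all 16 alternatives 3 of the 15 calls in Kl held, against 10 of 14 in WT.

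VEGFA rose with time in both lines, by 0.71 ± 0.0625 in WT and 0.56 ± 0.105 in Kl on the log2 scale. It read 53.2, 56.0 and 66.7 CPM in WT controls at 1 h and 95.9, 96.2 and 92.4 CPM at 24 h. Its later libraries were all above its earlier ones in both lines. Calls of PDK1, NDRG1, P4HA1 and GPI in WT were each lost without some single library, replicate 2 of the WT controls at 1 h excepted. In Kl, NDRG1 lost its call without any library but replicate 3 at 1 h, BNIP3L without that one or replicate 1 or 3 at 24 h, HK2 without replicate 1 or 3 at 24 h, and PGAM1 without replicate 1 of either time. MKI67 was higher at 24 h in WT controls (0.47), with no call in Kl controls (0.08). The means of TOP2A went from 907.6 to 964.3 CPM in WT controls and from 910.2 down to 796.3 CPM in Kl controls. Its libraries did not overlap between the times in either line. In WT controls the kidney epithelial markers summed to 1001.9 to 1069.1 CPM at 1 h and 852.1 to 880.5 at 24 h. In Kl controls they summed to 567.6 to 615.3 and 533.2 to 560.8. There KRT19 (-0.70) and EPCAM (-0.42) fell and PAX2 (0.63) rose. In WT controls KRT8 (-0.30), KRT19 (-0.28) and EPCAM (-0.24) fell and PAX2 (0.40) rose. Mitochondrially encoded genes took 6.09 to 7.22% of counts at 1 h and 5.35 to 5.53% at 24 h in WT controls, and 6.06 to 7.62% and 5.69 to 6.05% in Kl controls. The part of these in the change over time was not tested.

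The difference between the lines in this change was tested after the values of both had been seen. It was called for 13 members, all higher in Kl, where 4.51% of all genes were called (2.79% higher and 1.72% lower). They were 9 enzymes, 1 regulator and 3 other hypoxia genes, with LDHA at 0.49 ± 0.058 (adjusted p = 7.3e-07), PGAM1 at 0.38 ± 0.0604 (9.05e-05), PDK1 at 0.51 ± 0.0944 (0.000803) and PGK1 at 0.30 ± 0.0614 (0.00224). LDHA and PGAM1 held under all 22 alternatives. The call of TPI1 was lost in 14 of them, that of KDM3A in 11, PKM in 10, PFKL in 9 and EGLN3 in 7. Those of LDHB, ENO1, GPI, EGLN1, PDK1 and PGK1 were each lost in 1 to 4. With library size scaling 8 members were called, and the share of all calls that were higher moved from 61.8 to 30.0%. The count ranged from 6, without replicate 2 of the WT controls at 24 h, to 18 when single libraries were left out, and it was 8 without replicate 3 of that group, without replicate 2 of the Kl controls at 1 h, or without replicate 1 or 3 of the Kl controls at 24 h.

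**Figure D5:**
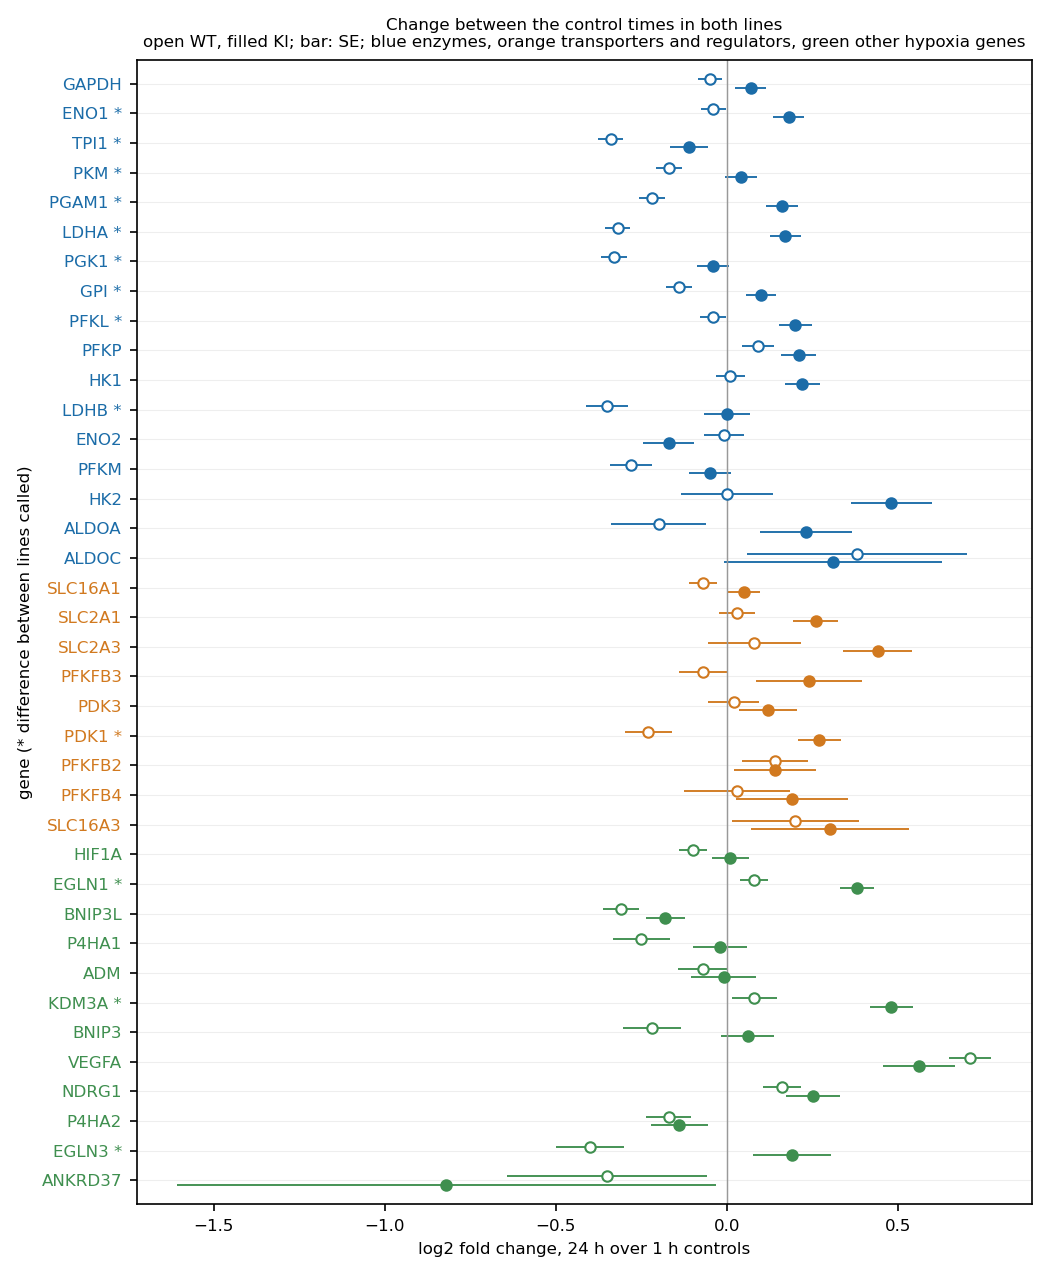
log2 fold change from 1 h to 24 h in control cells for 38 genes (vertical), open for WT and filled for Kl, with SE bars, and an asterisk where the difference between the lines was called. LDHA lies at -0.32 in WT and 0.17 in Kl, and VEGFA lies at 0.71 and 0.56.

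Wider lists gave the setting of these genes in Kl cells with FGF23 at 24 h. Of 44 other genes of glycolysis and pyruvate use, 31 were tested, 3 rose and 7 fell, with a median of -0.07, where 17.3% of all genes were called (9.3% higher and 8% lower). PCK2, the mitochondrial PEP carboxykinase, rose from 18.8 to 56.4 CPM as group means (1.58 ± 0.0737, adjusted p = 6.56e-16), PDP1, the phosphatase that reactivates pyruvate dehydrogenase, rose by 0.76 and the glycogen branching enzyme GBE1 by 0.41. PGAM5 fell by 0.30. Neither PCK2, known as a target of the amino acid response, nor PGAM5, a mitochondrial phosphatase, carries out a step of glycolysis.

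Among 17 HIF pathway genes tested of 19, 2 rose and 2 fell, a count near the 17.3% called over all genes. SIAH2, a ubiquitin ligase of the hydroxylases, rose by 0.23 and the coactivator EP300 by 0.15. EPAS1, encoding another HIF alpha subunit, fell by 0.16 and the partner ARNT2 by 0.18. In WT cells EP300 (-0.23, adjusted p = 2.71e-05 by edgeR) and its relative CREBBP (-0.18, 0.00154) fell at 24 h. In that comparison 0.635% of all genes were called, 113 in number, against 2 with voom and 0 in the fit to all 24 libraries. All 40 further hypoxia targets were tested, of which 6 rose and 6 fell, with a median of -0.03. STC2, a secreted glycoprotein also induced by unfolded proteins, rose from 60.4 to 175.8 CPM (1.54 ± 0.0535), BHLHE40, a transcriptional repressor, by 0.97, DDIT4, an inhibitor of mTOR, by 0.38 and the oxidase ERO1A by 0.28.

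In Kl against WT controls at 24 h the counts were 13 higher and 3 lower for the other glycolysis and pyruvate genes, 7 and 2 for the HIF pathway, and 15 and 7 for the further targets, with medians of 0.08, 0.04 and 0.12, where 38.3% of all genes were called (20.2% higher and 18.1% lower). PCK2 (-1.17) and STC2 (-0.92) were lower in Kl controls, and GYS1, a glycogen synthase, was higher (0.53). At 1 h with FGF23 0 genes of the 3 lists were called by edgeR in Kl cells, while 2 of 31, 1 of 17 and 8 of 40 had an unadjusted p under 0.05, against 1368 of 17790 genes. The difference between the lines at 1 h was called for PDP1 (1.01 ± 0.209, adjusted p = 0.0451).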

How the data were processed

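Gene expression was measured in 24 bulk RNA libraries. The authors deposited raw counts per gene with a gene length, and, per the file headers, their own log2 fold changes and p-values for each FGF23 comparison, used here only where named. Their aligner, counter and stranding are not given in the sources used here. The submitters' processing notes name the build mm10, yet 34299 of 34305 genes lie at GENCODE 29 coordinates of GRCh38, which are the coordinates printed. The 4 tables were joined by gene identifier. Genes missing from 1 of them were given 0 counts there.

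Counts, 15.8 to 30.4 M per library (M, 1000000), were filtered with filterByExpr, scaled by TMM and tested with edgeR 4.0.16 (quasi-likelihood, R 4.3.3) on the 6 libraries of each comparison, or 12 for differences between lines. p-values were Benjamini-Hochberg adjusted over 17790 genes with a threshold of 0.05. Errors on log2 fold changes are SEs, and 95% intervals use the normal quantile. Alternatives used DESeq2 1.42.0, limma 3.58.1 (voom), other scalings and filters, all 24 libraries, a GC correction, a replicate block and each library left out. The code was tested on simulated data. Python 3.11.15, pandas 2.3.3 and matplotlib 3.10.9 made tables and figures.

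Members with calls among the 8 smallest p of a comparison were named, with LDHA, LDHB, HK1, HK2, PFKFB3, SLC2A1, SLC2A3, PDK1, HIF1A, VEGFA, NDRG1 and CA9, and up to 4 called genes per wider list. The members and lists were chosen with earlier results of these data known. The genes of fibroblast, endothelial and blood marker lists reached a mean of 1 CPM for 2 of 7 and 1 of 5 genes.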

Additional observations from a re-analysis of the deposited data

Results flagged for a closer look

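The response to FGF23 at 24 h differed between Kl and WT cells for 17 genes by a direct test of the difference (edgeR, adjusted p under 0.05). In that test 14% of all genes were called (6.19% lower and 7.83% higher). As Kl minus WT log2 fold changes, the glycolytic enzymes stood at -0.37 for HK2, -0.13 for GPI, -0.29 for PFKL, -0.46 for PFKM, -0.31 for TPI1, -0.23 for PGAM1, -0.35 for LDHA and -0.26 for LDHB. Transporters and regulators stood at -0.24 for SLC2A1, 1.85 for SLC2A3, -0.41 for PDK1 and -0.42 for PFKFB3. The remaining hypoxia genes stood at -0.68 for BNIP3, -0.50 for EGLN3, 0.52 for NDRG1, 0.83 for VEGFA and -0.21 for KDM3A. The fits rest on 3 libraries per group.

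The change from 1 h to 24 h in control cells differed between the lines for 13 genes by the same kind of test, which was added after the values had been seen. Over all genes 4.51% were called (2.79% higher and 1.72% lower). All 13 were more positive in Kl. The enzymes stood at 0.49 for LDHA, 0.38 for PGAM1, 0.30 for PGK1, 0.25 for GPI, 0.23 for ENO1, 0.36 for LDHB, 0.25 for PFKL, 0.21 for PKM and 0.24 for TPI1. PDK1 stood at 0.51, EGLN1 at 0.32, EGLN3 at 0.60 and KDM3A at 0.41. Only the calls of LDHA and PGAM1 held under all 22 alternatives. Those of TPI1, KDM3A, PKM, PFKL and EGLN3 were lost in 14, 11, 10, 9 and 7 of them. What the 4 control groups received, and whether the 2 times were run together, is not given in the labels.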

How the results depend on the processing

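No direction of a called value reversed under any alternative run. Leaving out 1 library at a time gave 0 to 0 called members for FGF23 in WT at 1 h and at 24 h and in Kl at 1 h, 15 to 19 in Kl at 24 h, 7 to 13 between lines at 1 h and 31 to 34 at 24 h, 11 to 17 for time in WT and 11 to 16 in Kl. It gave 0 to 1 for the difference of FGF23 effects at 1 h (1 without replicate 2 of treated Kl), 14 to 18 at 24 h, and 6 to 18 for the difference of time effects. One fit to all 24 libraries gave 4 called members in Kl at 1 h, 12 in Kl at 24 h, 5 for time in Kl, 1 and 7 for the differences at 1 h and 24 h, and 2 for the difference of time effects. Over all 17790 genes it called 859, 1524, 2293, 131, 673 and 96, in the same order. In Kl at 1 h, no filter, DESeq2, voom and the replicate block each called 1 member, where the count was 0. At that time no filter called 2 and voom 1 for the difference between lines, against 207 and 88 of all genes. Library size scaling gave 9 between lines at 1 h and 8 for the difference of time effects, against 3454 and 681 of all genes. The cause of these moves was not tested. Over all genes FGF23 at 1 h gave in Kl cells 93 calls, 236 with no filter, 184 with DESeq2, 859 with all 24 libraries, 229 with voom and 178 with the block, and in WT cells 0, 1, 1, 0, 0 and 5. At 24 h in Kl cells it gave 3078, and 1524 with all 24 libraries, 1911 and 1975 without treated replicate 3 or 2, and 1973 without control replicate 3. The fit to 21 libraries, without the treated Kl group at 1 h, called 3164 there. HK2, SLC2A1, PFKL and KDM3A kept their calls in it.

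Replicate numbers were used as a block only as an alternative, and the labels do not say what they mark. Same-numbered treated and control libraries of a line correlated weakly (r from 0.05 to 0.12 at 1 h and from -0.02 to 0.06 at 24 h). At 1 h every library correlated best with its own number, so the main fits at 1 h may leave out a shared replicate difference. With the block edgeR called SLC2A3 with FGF23 in Kl cells at 1 h (adjusted p = 0.00278) and HK2 between lines at 1 h (1.09e-10). Neither was called in the main fit. With the replicate block the members called were 0 in both WT comparisons, 1 in Kl at 1 h, 19 in Kl at 24 h, 17 and 34 between lines, 15 and 16 for time, and 0, 17 and 13 for the differences. Over all 17790 genes the block called 5 and 95 in WT and 178 and 2851 in Kl at 1 h and 24 h. It called 3863 and 6944 between lines, 4552 and 4469 for time, and 58, 2591 and 869 for the differences. Total counts over the 24 libraries were lowest for CA9 (2), ALDOC (777), ANKRD37 (1615), SLC16A3 (1645) and PFKFB4 (2495), which limits their precision.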
